A study of Mus musculus with 25 samples.

Results

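The comparison described here set 6 homozygous Bin1-cKO mice whose sorted microglia held little Fos mRNA against all 6 WT mice of the same study. The homozygous mice were chosen on a measured value. Of the 10 homozygous mice, those with Fos at or below 100 CPM of the column total were kept, and the 4 above it were set aside. The highest value kept was 7.36 CPM and the lowest set aside was 859 CPM, so no mouse lay near the limit. The 12 mice are part of 23 mice with a column of counts, out of 25 that are labelled, and the other 7 with a column are heterozygous. The question was which differences between homozygous and WT microglia were present in mice whose cells did not carry a high immediate-early gene response.

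Microglia were sorted by FACS as CD11b+ and CD45med cells from the brains of mice aged 3 months, and RNA was sequenced in 1 library per mouse. Homozygous mice are Bin1flox/flox with Thy1-Cre+, heterozygous mice are Bin1flox/wt with Thy1-Cre+, and the WT group is Bin1flox/wt without Cre (Thy1-Cre-), so all 3 genotypes carry a floxed allele. The floxed allele came from strain B6.129S6-Bin1tm2Gcp/J and the transgene from FVB/N-Tg(Thy1-cre)1Vln/J. The promoter drives recombination in neurons, so the deletion is aimed at cells other than those sequenced. Recombination in the sorted cells was not tested here. The Fos-low homozygous mice were 3 females (Bin1-Homo-F-0357, Bin1-Homo-F-0432, Bin1-Homo-F-0440) and 3 males (Bin1-Homo-M-0344, Bin1-Homo-M-0436, Bin1-Homo-M-0437), and the WT mice were 2 females and 4 males. Animal numbers of all WT and heterozygous mice start with 02, whereas those of homozygous mice start with 03 or 04, so genotype and a possible cohort of animals cannot be told apart. The 4 Fos-high mice all have numbers in the 03 range, and 4 of the 6 Fos-low mice have numbers in the 04 range.

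Microglia are the resident macrophages of the brain. In the undisturbed state they express sensor and adhesion genes such as P2ry12, Tmem119 and Cx3cr1, and when activated they raise chemokines, antigen presentation genes, lysozyme and other genes seen in disease-associated microglia (DAM). Immediate-early genes such as Fos, Jun and Egr1 encode transcription factors and regulators that are switched on within minutes by signals reaching the cell and by dissociation of tissue.

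Total counts ranged from 12816757 to 16212740 in the Fos-low homozygous mice and from 13309780 to 15340550 in WT mice. The 8 microglia markers summed to 38860 to 46300 CPM in the Fos-low mice and 48440 to 67770 CPM in WT mice, and those of other brain cells lay at far lower sums given below. The 10 most abundant genes took 11.2% to 14.1% of counts in the Fos-low mice and 14.2% to 16.2% in WT mice. Mitochondrial genes took 0.319% to 0.456% and 0.173% to 0.411%, respectively. From here on, CPM are scaled by edgeR's TMM-normalized library totals, log2FC stands for the log2 fold change and SE for its standard error, and a gene was called as differentially expressed where the adjusted p was under 0.05 and the fold over 1.5.

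Fos, which encodes a subunit of the AP-1 transcription factor, was at a median of 1.55 CPM in the Fos-low homozygous mice (lowest 0.363, highest 7.03) and 1.08 CPM in WT mice (0.0683 to 1.72). In the Fos-high mice it was at 826 to 1455 CPM. Fosb, a close relative of Fos, was below 1 CPM in all 12 mice compared and at 3.35 to 10.3 CPM in the Fos-high mice. Choosing mice on Fos brings down genes that move with Fos, so the genes of a fixed immediate-early list are described without a test. Other genes far higher in the Fos-high mice, such as Ccl2, Ccl3, Ccl4 and Nfkbiz, were tested. Their fold changes also depend on the choice of mice and hold only for mice chosen this way.

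Of 28 genes in the immediate-early list, 25 had enough counts, and 24 of them had a higher mean in the Fos-low homozygous mice than in WT mice, with a median log2FC of 0.53 over the list. The median of all genes tested was 0.01. With the Fos-high mice against the same WT mice the median of the list was 2.89. With the 4 homozygous mice of the 04 range, which are all Fos-low, it was 0.29. Jun, the partner of Fos in AP-1, was at a median of 198 CPM in the Fos-low mice (140 to 343) and 149 CPM in WT mice (116 to 181), and Junb at 241 CPM (213.7 to 298) and 202 CPM (170 to 244). In both genes the groups overlapped. Egr1, a zinc finger transcription factor, was at 13.5 CPM (12.6 to 22.97) against 8.54 CPM (5.99 to 11.1), and all 6 Fos-low mice lay above all WT mice. Dusp1, a phosphatase of MAP kinases, was at 7.02 CPM (5.00 to 11.3) against 4.86 CPM (1.67 to 7.003). Ier2 was at 20 CPM (16.9 to 44.2) against 13.3 CPM (11.8 to 23.5), and Egr2 at 5.85 CPM (4.11 to 8.27) against 3.09 CPM (1.75 to 4.37). The 2 Fos-low mice with numbers in the 03 range, Bin1-Homo-M-0344 and Bin1-Homo-F-0357, had the highest values of the 6 for Fos, Jun and Egr1. The list thus lay far below the Fos-high mice and, in most members, a little above WT. In the Fos-high mice Jun, Egr1 and Dusp1 were at 2880 to 3490, 1580 to 3479 and 441 to 970.2 CPM, respectively, far outside these ranges.

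**Figure D1:**
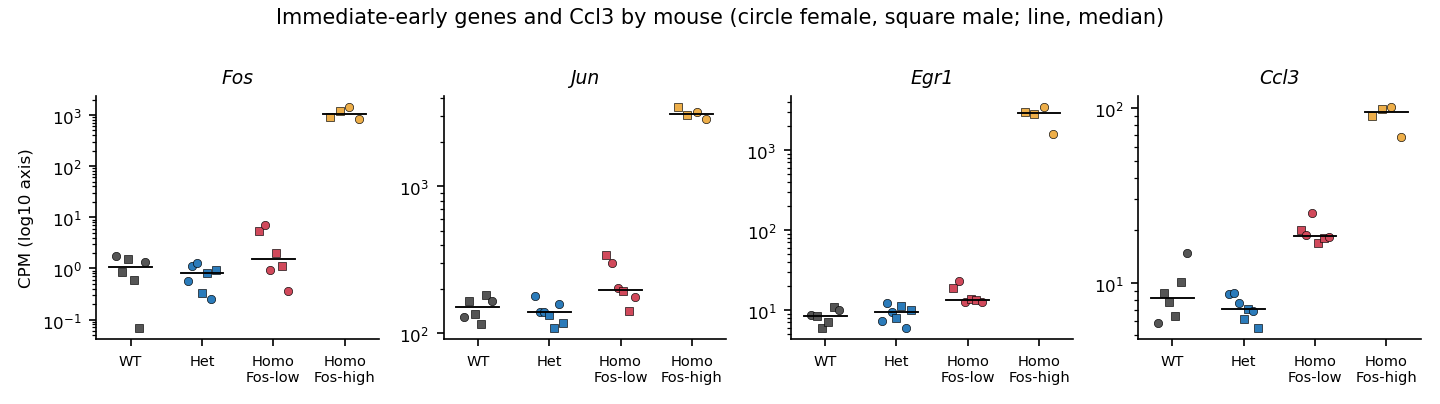
CPM of Fos, Jun, Egr1 and the chemokine Ccl3 in each mouse (log10 axis) for WT, heterozygous (Het), Fos-low and Fos-high homozygous mice, with circles for females, squares for males and a line at the group median. Fos in the 6 Fos-low mice sits between 0.363 and 7.03 CPM, beside 0.0683 to 1.72 CPM in WT mice, whereas Ccl3 in the same Fos-low mice, at 16.9 to 25.0 CPM, lies above all WT mice (5.92 to 14.7 CPM).

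Across 13373 genes tested, 335 (2.51%) were called between the Fos-low homozygous and WT mice by edgeR's quasi-likelihood test, 163 higher (1.22%) and 172 lower (1.29%). These counts hold 5 members of the immediate-early list that passed the same limits (Egr1, Egr2, Ier2, Ier3 and Jun), and nothing is read from them, since the mice were chosen on Fos. Outside that list 158 genes were called higher and 172 lower of 13348 (2.47%). All 6 Fos-low mice lay above all 6 WT mice in 197 genes (1.47%) and below them in 237 genes (1.77%). With the 4 homozygous mice of the 04 range alone, 323 genes (2.42%) were called, and 220 of the 335 were among them. These 4 mice are all Fos-low, so a choice by this label also leaves out every Fos-high mouse. With all 10 homozygous mice 439 of 12908 genes were called, and 249 of the 335 were among them. Both sets share mice with the 6 Fos-low mice and use the same WT mice, so these overlaps are not independent evidence. The neuronal markers described below also separated the groups, and with their mean level as a covariate 14 genes were called, 11 of them among the 335.

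**Figure D2:**
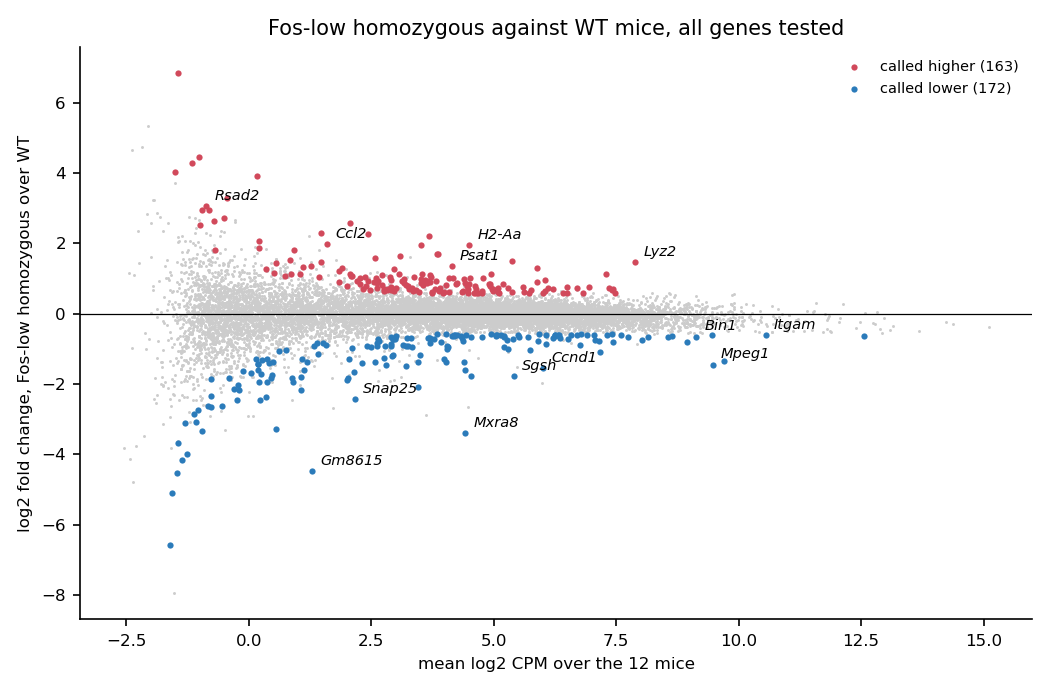
Log2 fold change of Fos-low homozygous over WT mice (vertical axis) against the mean log2 CPM over the 12 mice (horizontal axis) for all 13373 genes tested, with the 163 genes called higher in red and the 172 called lower in blue. Lyz2, at a log2FC of 1.47, stands apart from other genes of its level, and Gm8615 (-4.49) and Mxra8 (-3.39) are the lowest of the labelled genes.

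Lyz2, the lysozyme gene of macrophages (ENSMUSG00000069516.7; GRCm38 chromosome 10, 117277331 to 117282321), rose with the smallest p. It was at a median of 379.7 CPM in the Fos-low homozygous mice (364 to 479) and 139 CPM in WT mice (120 to 172). Every Fos-low mouse was above every WT mouse, and the Fos-high mice, at 190.3 to 353 CPM, lay between. The log2FC was 1.47 (SE 0.15, adjusted p = 3.2e-06), a 2.76-fold difference, and it was 1.51 with the mice of the 04 range alone (adjusted p = 2.1e-05).

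Of 20 DAM genes tested, 12 were higher and 8 lower, with a median log2FC of 0.11. The list summed to 30550 to 37830 CPM in the Fos-low mice and 33160 to 45150 CPM in WT mice. All Fos-low mice lay above all WT mice in 5 genes and below them in 1. Of the 20 genes 5 were called, all higher. Besides Lyz2 they were Cst7, Axl, Lgals3 and Clec7a. Cst7, an inhibitor of lysosomal cathepsins, was at 11.5 CPM (9.84 to 15.9) in the Fos-low mice and 5.67 CPM (4.24 to 7.02) in WT mice, with no overlap (log2FC 1.12 ± 0.20 SE, adjusted p = 0.0016). Axl, a receptor that binds dying cells through bridging proteins, was at 26.9 CPM (21.5 to 30.5) and 14.1 CPM (9.87 to 19.6), again with no overlap (log2FC 0.88 ± 0.19 SE, adjusted p = 0.0066). Lgals3, which encodes galectin-3, was at 4.03 CPM (2.60 to 5.04) and 1.66 CPM (0.547 to 2.19), also without overlap (log2FC 1.36 ± 0.33 SE, adjusted p = 0.013). The means of Cst7, Axl and Lgals3 in the Fos-high mice, at 7.96, 20.5 and 2.36 CPM, were nearer to WT than those of the Fos-low mice, a difference that was not tested. The fifth, Clec7a, is given with the calls that were lost when single mice were left out.

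Chemokines and cytokines were higher as a group. Of 15 tested, 13 had a higher mean in the Fos-low homozygous mice, 9 were called higher and 0 lower, and in 6 all Fos-low mice lay above all WT mice. Their median log2FC was 0.90 and 7 were called with the mice of the 04 range alone. Ccl2, which recruits monocytes through Ccr2, was at 4.79 CPM (3.16 to 12.5) in the Fos-low mice and 1.58 CPM (1.09 to 2.06) in WT mice, a 3.96-fold difference without overlap (log2FC 1.98 ± 0.28 SE, adjusted p = 0.00029). It stood at 27.0 to 32.9 CPM in the Fos-high mice. Ccl3, a chemokine of macrophages, was at 18.6 CPM (16.9 to 25.0) against 8.22 CPM (5.92 to 14.7), with a log2FC of 1.10 (SE 0.17, adjusted p = 0.00039), and at 68.2 to 102 CPM in the Fos-high mice. The mice of the 04 range alone gave the same fold change of 1.10 for Ccl3 with an adjusted p of 0.074. Ccl4, its neighbour on chromosome 11, was at 25.95 CPM (21.95 to 30.65) against 15.2 CPM (12.3 to 24.8), with 5 of 6 mice above all WT mice (log2FC 0.65 ± 0.13 SE, adjusted p = 0.0036, and 0.23 with the 04 range alone). Both genes were thus higher than in WT mice where Fos was low, at levels well under those of the Fos-high mice.

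Other chemokines of this group varied more between mice. Ccl12 was at 36.2 to 267 CPM in the Fos-low mice and 22.6 to 34.1 CPM in WT mice, and the value of 267 CPM belonged to mouse Bin1-Homo-M-0436, with the other 5 at or below 57.7 CPM (log2FC 1.498 ± 0.36 SE, adjusted p = 0.012). Without that mouse it was 0.65, still called. Ccl7 was at 0.303 to 3.78 CPM against 0.0683 to 1.15 CPM (log2FC 2.73 ± 0.69 SE, adjusted p = 0.016), where the lowest values stand for about 1 count. Cxcl16, a membrane-bound chemokine, was at 81.5 CPM (63.1 to 104) against 54.1 CPM (49.5 to 56.5), with all 6 mice above WT (log2FC 0.65 ± 0.097 SE, adjusted p = 0.00039). Its fold change fell under 1.5 without mouse Bin1-Homo-M-0437 (log2FC 0.57).

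Among the cytokines, Il1a, an alarmin of the interleukin-1 family, was at 202 CPM (167 to 266) in the Fos-low mice and 131 CPM (101 to 151) in WT mice. The groups did not overlap, and its log2FC of 0.72 (SE 0.12, adjusted p = 0.0012) was kept whichever of the 12 mice was left out. Il1b, the secreted cytokine cut by the inflammasome, was at 4.35 CPM (3.30 to 9.02) against 1.82 CPM (0.292 to 2.85), without overlap (log2FC 1.47 ± 0.42 SE, adjusted p = 0.030). Its call was lost without Bin1-Homo-M-0436 (adjusted p = 0.12), Bin1-WT-M-0211 or Bin1-WT-M-0222. Il6, the acute-phase cytokine, was also called and is given with the calls that were lost when single mice were left out. The Fos-high means of Il1a and Il1b were 257 and 3.11 CPM.

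In the NF-kB pathway list 10 of 16 genes were higher and 2 were called, Nfkbiz and Bcl3, and the median log2FC was 0.02. Nfkbiz, which encodes a nuclear regulator of NF-kB targets such as Il6, was at 19.3 CPM (15.4 to 22.2) against 8.82 CPM (6.44 to 13.6), without overlap (log2FC 1.04 ± 0.19 SE, adjusted p = 0.0019), and at 29.3 to 51.4 CPM in the Fos-high mice. Bcl3, another nuclear IkB protein, is given with the calls that were lost when single mice were left out.

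**Figure D3:**
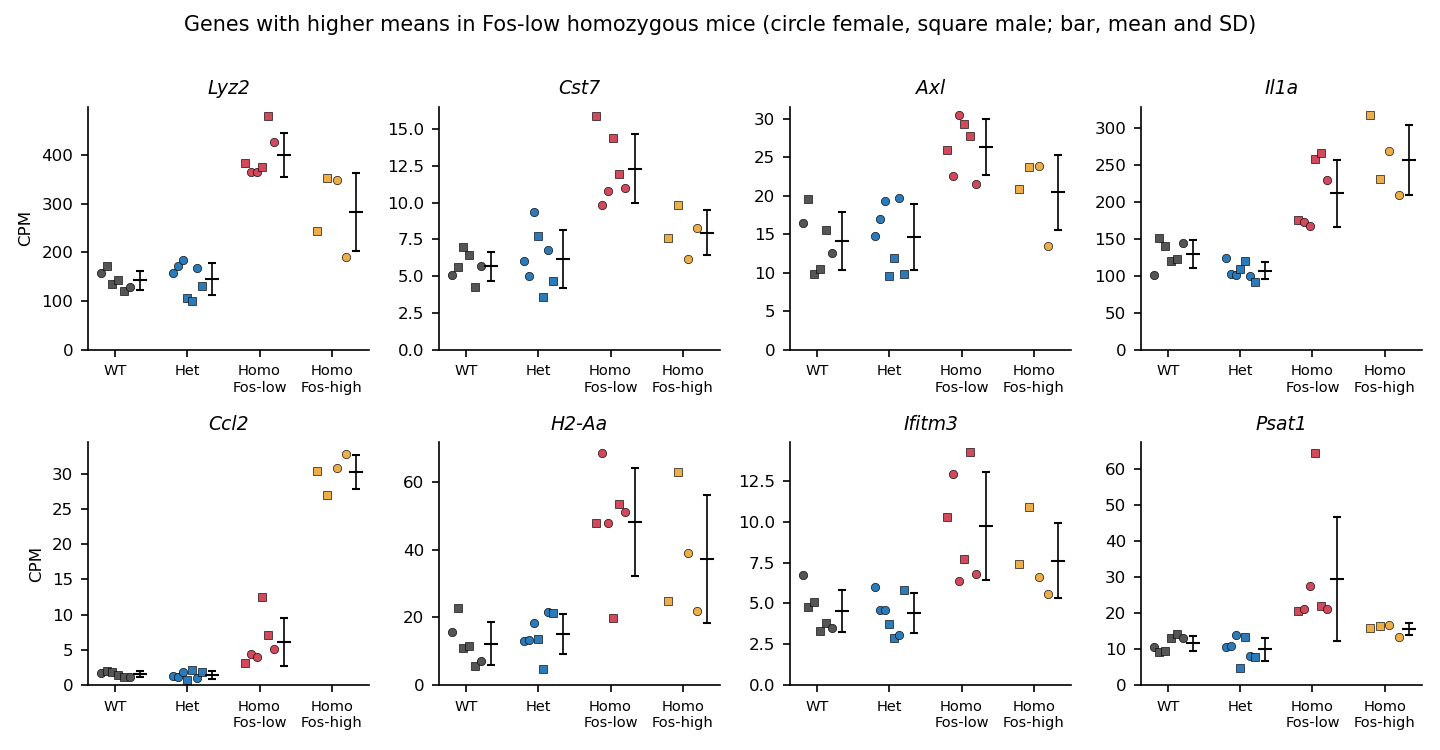
CPM by mouse of 8 genes with a higher mean in Fos-low homozygous mice, for the 4 groups of mice, with circles for females, squares for males and a bar for mean and SD. Lyz2 lies at 364 to 479 CPM in the Fos-low mice and 120 to 172 CPM in WT mice, and Psat1 shows mouse Bin1-Homo-M-0436 at 64.6 CPM above the other 5 (20.7 to 27.5 CPM).

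MHC class II molecules present peptides to CD4+ T cells, and Ciita is the coactivator that drives their genes. Of 9 genes of this group, 7 were higher in the Fos-low homozygous mice, 5 were called higher and 0 lower, with a median log2FC of 1.12. H2-Aa and H2-Ab1, which encode the chains of the I-A molecule, were at 49.6 CPM (19.7 to 68.7) against 11.2 CPM (5.60 to 22.9) and at 106 CPM (42.0 to 122) against 33.7 CPM (27.8 to 60.6). H2-Eb1, a chain of the I-E molecule, was at 26.3 CPM (15.3 to 48.5) against 6.69 CPM (2.19 to 12.0). Cd74, the invariant chain, was at 264 CPM (101 to 327) against 102 CPM (72.9 to 179). In H2-Aa, H2-Ab1 and Cd74 5 of 6 Fos-low mice lay above all WT mice and mouse Bin1-Homo-M-0436 was within their range, and in H2-Eb1 all 6 lay above. The log2FCs were 1.95 for H2-Aa (SE 0.35, adjusted p = 0.0019), 1.30 for H2-Ab1 (SE 0.26, adjusted p = 0.0036), 2.21 for H2-Eb1 (SE 0.43, adjusted p = 0.0029) and 1.12 for Cd74 (SE 0.27, adjusted p = 0.012). Their Fos-high means, 37.3, 91.9, 31.1 and 204 CPM, were close to those of the Fos-low mice. H2-Eb2, a class II gene outside the list and named after its values were seen, was called lower, with a mean of 0.121 CPM against 0.877 CPM (log2FC -3.07). These values are near the floor of these libraries. Its counts came mostly from WT and heterozygous mice (mean 0.855 CPM in the latter), so the call is a description. Ciita itself, the fifth, is given with the calls that were lost when single mice were left out.

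Most markers of other myeloid cells were also higher in the Fos-low mice. The 6 border macrophage markers tested summed to 23.9 to 38.4 CPM in the Fos-low mice and 6.97 to 32.1 CPM in WT mice, with 6 of 6 higher, and the 5 monocyte and neutrophil markers summed to 11.9 to 57.6 and 4.604 to 24.8 CPM. Both sums overlapped those of WT mice. The median log2FCs of these lists were 0.497 and 1.835, and 0.198 and 0.502 with the mice of the 04 range alone. In the Fos-high mice, whose chemokine and MHC class II lists summed to 1017 to 1206 and 628 to 1073 CPM (WT 699 to 912 and 509.6 to 740.3), the border macrophage markers were at 5.96 to 17.8 CPM, no higher than in WT mice, and the monocyte and neutrophil markers at 23.96 to 64.2 CPM. F13a1 was the 1 border macrophage marker called. Mrc1, another of these markers, had too few counts to be tested. Ccr2, the receptor for Ccl2 and a marker of monocytes, was at 12.0 CPM (7.86 to 20.2) against 5.02 CPM (3.65 to 5.80), with all 6 mice above WT (log2FC 1.26 ± 0.25 SE, adjusted p = 0.0033). S100a8 and S100a9, of neutrophils and monocytes, were at 0 in mice Bin1-Homo-F-0432 and Bin1-Homo-M-0436 and at up to 22.01 and 17.7 CPM in mouse Bin1-Homo-M-0344. The sort took cells positive for CD11b with medium CD45, whereas monocytes and border macrophages have high CD45. How many such cells passed the gate is not given in the sources used here. The part that such cells have in the chemokine, DAM and MHC class II results was not tested.

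MHC class I genes did not follow class II. Of 14 tested, 7 were higher and 7 lower, the median log2FC was 0.02 and 0 were called by edgeR or by DESeq2. Within this region of chromosome 17 some genes split the homozygous mice. H2-Q4 was at 3.15 to 3.57 CPM in mice Bin1-Homo-M-0344, Bin1-Homo-F-0357 and Bin1-Homo-M-0436 and at 14.7 to 17.1 CPM in mice Bin1-Homo-F-0432, Bin1-Homo-M-0437 and Bin1-Homo-F-0440, beside 12.8 to 19.3 CPM in WT mice. The class II chaperone gene H2-DMa split the same mice the other way, with 215.5 to 285 CPM in the first 3, 117 to 137 CPM in the others and 117 to 155 CPM in WT mice. H2-DMb2, a chain of the same chaperone named after its values were seen, split these mice the way H2-Q4 did, with 11.9 to 24.9 CPM in the first 3, 39.3 to 48.9 CPM in the others and 33.2 to 47.3 CPM in WT mice. None of the 3 genes was called (adjusted p = 0.22 for H2-Q4, 0.085 for H2-DMa and 0.27 for H2-DMb2).

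Interferon-stimulated genes, which respond to type I interferon through the ISRE promoter element, were higher in 26 of 30 tested, with a median log2FC of 0.43, 7 called higher and 0 lower. With the mice of the 04 range alone the median was 0.37 and 3 were called. Ifitm3, which blocks virus entry at membranes, was at 8.998 CPM (6.37 to 14.3) in the Fos-low mice and 4.32 CPM (3.33 to 6.74) in WT mice (log2FC 1.10 ± 0.25 SE, adjusted p = 0.0076). Rsad2, which encodes viperin, was at 1.08 CPM (0.218 to 2.22) and 0.0740 CPM (0 to 0.382), near the floor of these libraries, and 5 of 6 mice lay above WT (log2FC 3.05 ± 0.77 SE, adjusted p = 0.017). Ifit2, which binds viral RNA, was at 10.7 CPM (5.52 to 17.1) and 5.47 CPM (2.70 to 8.11), with a log2FC of 1.05 (SE 0.27, adjusted p = 0.018) that missed the threshold without mouse Bin1-Homo-M-0437 (adjusted p = 0.063). Ifi27l2a, an interferon-induced protein of membranes, was at 3.15 to 6.67 CPM in the Fos-low mice and 1.64 to 3.67 CPM in WT mice. Slfn2, Rtp4 and Ifit3 were also called. In none of the 30 did all 6 Fos-low mice lie above all 6 WT mice. That was so in only 1.47% of all genes tested, so the count is near the background.

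The promoters of genes from these groups show which elements they hold. RefSeq sequences (GRCm38.p6) were searched over 300 bases, from 250 before to 50 after each start, on both strands. The 250 bases before the start are printed here, 5′ to 3′ on the strand of the gene, for 5 called genes chosen to show each element. Capitals mark matches to the interferon element ISRE, the AP-1 site (TGANTCA), the cyclic AMP response element (CRE, TGACGTCA) or the kappa B site. Ifit3 lies at chr19:34583279-34583528 on the plus strand, Rsad2 at chr12:26456453-26456702 on the minus strand, H2-Aa at chr17:34287824-34288073 on the minus strand, Il6 at chr5:30012864-30013113 on the plus strand and Il1a at chr2:129309973-129310222 on the minus strand.
Ifit3: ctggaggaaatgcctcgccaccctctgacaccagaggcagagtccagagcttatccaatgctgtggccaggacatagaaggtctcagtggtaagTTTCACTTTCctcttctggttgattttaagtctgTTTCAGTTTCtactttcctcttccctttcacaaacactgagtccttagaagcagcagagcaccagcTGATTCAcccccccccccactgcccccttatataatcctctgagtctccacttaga
Rsad2: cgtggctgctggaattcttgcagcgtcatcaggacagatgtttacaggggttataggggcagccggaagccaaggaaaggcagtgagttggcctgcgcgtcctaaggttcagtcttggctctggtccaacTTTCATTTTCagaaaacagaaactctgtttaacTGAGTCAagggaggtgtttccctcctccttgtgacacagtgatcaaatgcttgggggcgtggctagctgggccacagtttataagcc
H2-Aa: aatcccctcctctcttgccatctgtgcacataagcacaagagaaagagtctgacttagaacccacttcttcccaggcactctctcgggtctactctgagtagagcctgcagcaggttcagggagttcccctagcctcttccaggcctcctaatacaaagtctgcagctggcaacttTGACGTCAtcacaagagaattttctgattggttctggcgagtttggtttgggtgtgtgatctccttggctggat
Il6: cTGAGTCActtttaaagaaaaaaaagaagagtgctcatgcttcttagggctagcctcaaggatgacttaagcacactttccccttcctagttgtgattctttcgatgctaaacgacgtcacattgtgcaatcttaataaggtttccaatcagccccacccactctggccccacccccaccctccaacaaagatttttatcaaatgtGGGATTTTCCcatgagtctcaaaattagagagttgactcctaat
Il1a: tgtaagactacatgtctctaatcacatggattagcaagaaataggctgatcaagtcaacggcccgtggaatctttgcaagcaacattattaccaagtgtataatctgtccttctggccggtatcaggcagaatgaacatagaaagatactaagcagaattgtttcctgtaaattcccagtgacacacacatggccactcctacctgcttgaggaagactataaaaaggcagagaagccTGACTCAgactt
The Ifit3 promoter holds 2 ISRE matches, 156 and 122 bases before the start, and an AP-1 match at 56. That of Rsad2 holds an ISRE match at 120 bases and an AP-1 match at 87, and Il6 holds a kappa B match at 44 and an AP-1 match at 249. The CRE match of H2-Aa begins 74 bases before the start, and Il1a has an AP-1 match at 12.

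Over all genes called, motif shares were taken as a description with no test. Of 154 promoters of 112 genes called higher, 11.7% held an AP-1 match, beside 4.94% of 162 promoters of 120 genes called lower and 4.79% of 12054 promoters of all genes tested. ISRE matches were in 8.44%, 3.09% and 3.18%, respectively. Kappa B matches were in 1.30%, 3.09% and 1.62%, and CRE matches in 0.649%, 3.09% and 3.12%. Without the immediate-early genes 12.2% of 147 promoters of genes called higher held an AP-1 match and 8.84% an ISRE match. A match of letters is not a site in use.

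Other genes that rose are in none of the pathway or cell type lists, and Lilra5 and 2610035D17Rik are among the genes that led the study's own list. Lilra5, an immunoglobulin-like receptor of myeloid cells, was at 22.2 CPM (10.7 to 37.9) in the Fos-low mice and 5.50 CPM (4.82 to 8.70) in WT mice, without overlap (log2FC 1.95 ± 0.27 SE, adjusted p = 0.00029). Chst1, a sulfotransferase of glycan chains, was at 23.3 CPM (9.98 to 59.8) and 8.29 CPM (6.56 to 11.8), with a log2FC of 1.69 (SE 0.33, adjusted p = 0.0033). The lincRNA 2610035D17Rik was at 12.1 CPM (1.76 to 19.5) and 1.79 CPM (1.61 to 2.37), and mouse Bin1-Homo-F-0357 alone lay within the WT range (log2FC 2.58 ± 0.46 SE, adjusted p = 0.0017). The same mouse had the lowest value of the 6 for Lilra5, for Chst1 and for the transcript 5830444B04Rik, which was at 13.7 CPM (2.11 to 28.5) against 2.90 CPM (1.75 to 3.43), a log2FC of 2.28 (SE 0.57, adjusted p = 0.015). Fcgr4, an activating Fc receptor, and Epb41l3, a membrane skeleton protein, were chosen after their values were seen. Fcgr4 was at 14.0 CPM (5.58 to 35.1) against 5.27 CPM (4.16 to 6.14), with a log2FC of 1.63 (SE 0.34, adjusted p = 0.0053), and its highest value was again in mouse Bin1-Homo-M-0436. Epb41l3 was at 28.7 CPM (9.34 to 43.5) against 9.02 CPM (6.21 to 10.3), with a log2FC of 1.68 (SE 0.31, adjusted p = 0.0022).

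Among called genes with a mean of at least 0 log2 CPM over the 12 mice, the limit for naming a gene by its size, low-level genes were also among the largest rises. Below that limit 12 genes were called higher and 22 lower, some with larger fold changes, and they were not named by size. Eps8l1, an adaptor of actin signaling, ranged from 0.0741 CPM in mouse Bin1-Homo-M-0437 to 13.7 CPM in mouse Bin1-Homo-M-0344, against 0 to 1.12 CPM in WT mice (log2FC 3.93 ± 0.97 SE, adjusted p = 0.014), and lost its call without Bin1-Homo-M-0344 (adjusted p = 0.051). Plbd1 was at 1.33 to 3.12 CPM against 0.0730 to 1.05 CPM (log2FC 2.06 ± 0.56 SE, adjusted p = 0.023), with an adjusted p of 0.050 without Bin1-WT-M-0222, where the call was lost. Gm9892, Gm1070 and Ahcy, an enzyme of the methionine cycle, are given with the calls that were lost when single mice were left out.

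Serine is made from a glycolytic intermediate by Phgdh, Psat1 and Psph, and these genes are raised by the integrated stress response through Atf4. Of 16 genes of this list 11 were higher, 2 were called higher and 0 lower, with a median log2FC of 0.09. Psat1 was at 21.6 CPM (20.7 to 64.6) in the Fos-low mice and 11.8 CPM (9.23 to 14.2) in WT mice, without overlap (log2FC 1.35 ± 0.26 SE, adjusted p = 0.0027). Apart from mouse Bin1-Homo-M-0436, the other 5 lay within 20.7 to 27.5 CPM. Without Bin1-Homo-M-0436 the log2FC was 0.93, and the gene was still called. The Fos-high mean, 15.6 CPM, was nearer to WT. Mthfd2, a mitochondrial folate enzyme, was the other gene called.

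Genes of homeostatic microglia were lower by small amounts. Of 17 tested, 14 had a lower mean in the Fos-low homozygous mice, with a median log2FC of -0.23 and 0 called by edgeR or DESeq2, and in 3 all Fos-low mice lay below all WT mice. Tmem119, a surface protein of microglia, was at 6493 CPM (6177 to 7175) against 8799 CPM (7159 to 10580), with a log2FC of -0.44 (SE 0.083, adjusted p = 0.0026). P2ry12, a receptor for ADP, was at 8134 CPM (6519 to 10020) against 10130 CPM (8155 to 12710), with a log2FC of -0.34 (SE 0.099, adjusted p = 0.033). Both passed the adjusted p but stayed under the fold change of 1.5, and both were chosen after their values were seen. Their Fos-high means, 6592 and 8331 CPM, lay within the ranges of the Fos-low mice.

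All 8 microglia markers were lower, with a median log2FC of -0.29, and 1 was called. That was Itgam, which encodes the CD11b of the sort. Csf1r, the receptor for the growth factor of microglia, was at 11630 CPM (8280 to 12380) and 15510 CPM (11350 to 20190), a log2FC of -0.51 (SE 0.13, adjusted p = 0.015). WT mouse Bin1-WT-M-0211 had the highest values of Itgam, Csf1r, P2ry12 and Tmem119, and the lowest TMM factor of the WT mice (0.880, against 1.02 to 1.07 in the Fos-low mice). The part of library composition in these shifts was not tested.

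The targeted gene itself, Bin1 (chromosome 18, 32377230 to 32435737), was at 459 CPM (327.6 to 646) in the Fos-low homozygous mice and 693 CPM (596 to 811) in WT mice, although Cre acts in neurons. Of the 6 Fos-low mice 5 lay below all WT mice, and mouse Bin1-Homo-F-0357 lay within their range (log2FC -0.66 ± 0.13 SE, adjusted p = 0.0036). The call, near the fold threshold, was kept whichever of the 12 mice was left out. In 17 Alzheimer risk genes, 7 were higher and 10 lower, Bin1 was the 1 called, and the median log2FC was -0.09. App, the amyloid precursor, was at 110.4 to 161 CPM against 156 to 273 CPM, with a log2FC of -0.51 (SE 0.11, adjusted p = 0.0070), under the fold change of 1.5.

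Of the genes that fell, 5 that encode proteins of lysosomes or endosomes are given next. They were chosen after their values were seen, and no list of such genes was tested, while Lyz2 and Cst7, whose products also act in lysosomes, rose. Sgsh, the sulfamidase that degrades heparan sulfate (ENSMUSG00000005043.11, chromosome 11), was at 25.6 CPM (13.3 to 29.7) in the Fos-low mice and 77.0 CPM (66.4 to 94.5) in WT mice, without overlap. It fell by 1.77 on the log2 scale (SE 0.22, adjusted p = 3.3e-05). The Fos-high mice split, with 23.8 and 24.1 CPM in mice Bin1-Homo-F-0333 and Bin1-Homo-M-0329 and 59.2 and 66.8 CPM in mice Bin1-Homo-F-0342 and Bin1-Homo-M-0328. Npc1, the cholesterol exporter of lysosomes on chromosome 18, was at 133 CPM (112 to 148) and 220.1 CPM (205 to 268), and all homozygous mice, Fos-high included (93.8 to 136 CPM), lay below all WT mice (log2FC -0.80 ± 0.094 SE, adjusted p = 2.3e-05). Gaa, acid alpha-glucosidase, was at 221 CPM (158 to 228) against 339 CPM (257 to 422), again without overlap (log2FC -0.74 ± 0.13 SE, adjusted p = 0.0018). Arsb, arylsulfatase B, did not fall evenly, with 1020 and 1047 CPM in mice Bin1-Homo-F-0432 and Bin1-Homo-F-0357, next to the lowest WT value of 1121 CPM, and 277 to 437.1 CPM in the other 4 (log2FC -1.35 ± 0.30 SE, adjusted p = 0.0076). Tlr9, the receptor of unmethylated DNA in endosomes, was at 7.38 CPM (5.86 to 9.09) and 11.6 CPM (9.21 to 15.9), with a log2FC of -0.68 (SE 0.16, adjusted p = 0.0090).

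Ccnd1, cyclin D1, which drives entry into the cell cycle, was also chosen after its values were seen. It was at 36.0 CPM (32.8 to 47.6) in the Fos-low mice and 112 CPM (94.8 to 120.1) in WT mice, without overlap (log2FC -1.54 ± 0.17 SE, adjusted p = 6e-06). In the Fos-high mice it was at 96.9 to 119 CPM in 3 and 40.5 CPM in mouse Bin1-Homo-F-0333. Mpeg1, the pore-forming perforin-2 of macrophages and chosen in the same way, was at 219.2 to 397 CPM in 5 Fos-low mice and 1209 CPM in mouse Bin1-Homo-M-0344, against 991 to 1746 CPM in WT mice (log2FC -1.45 ± 0.35 SE, adjusted p = 0.012). The Fos-high mice split as well, with 261 and 299 CPM in mice Bin1-Homo-F-0333 and Bin1-Homo-M-0328 and 1053 and 1093 CPM in mice Bin1-Homo-F-0342 and Bin1-Homo-M-0329. Mxra8, a cell adhesion protein, was at 0.943 to 4.52 CPM in 5 Fos-low mice and 51.3 CPM in mouse Bin1-Homo-F-0357, against 86.0 to 121 CPM in WT mice (log2FC -3.39 ± 0.74 SE, adjusted p = 0.0065). Without Bin1-Homo-F-0357 it was -5.01. Gas1, a growth arrest gene, followed the same mouse, at 0.0673 to 0.580 CPM in 5 mice and 1.97 CPM in Bin1-Homo-F-0357, against 3.42 to 5.77 CPM (log2FC -3.27 ± 0.58 SE, adjusted p = 0.0015). For Arsb, Mpeg1 and Mxra8 the fold change therefore averages over mice near WT and mice far below, and the mice near WT differ from gene to gene.

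**Figure D4:**
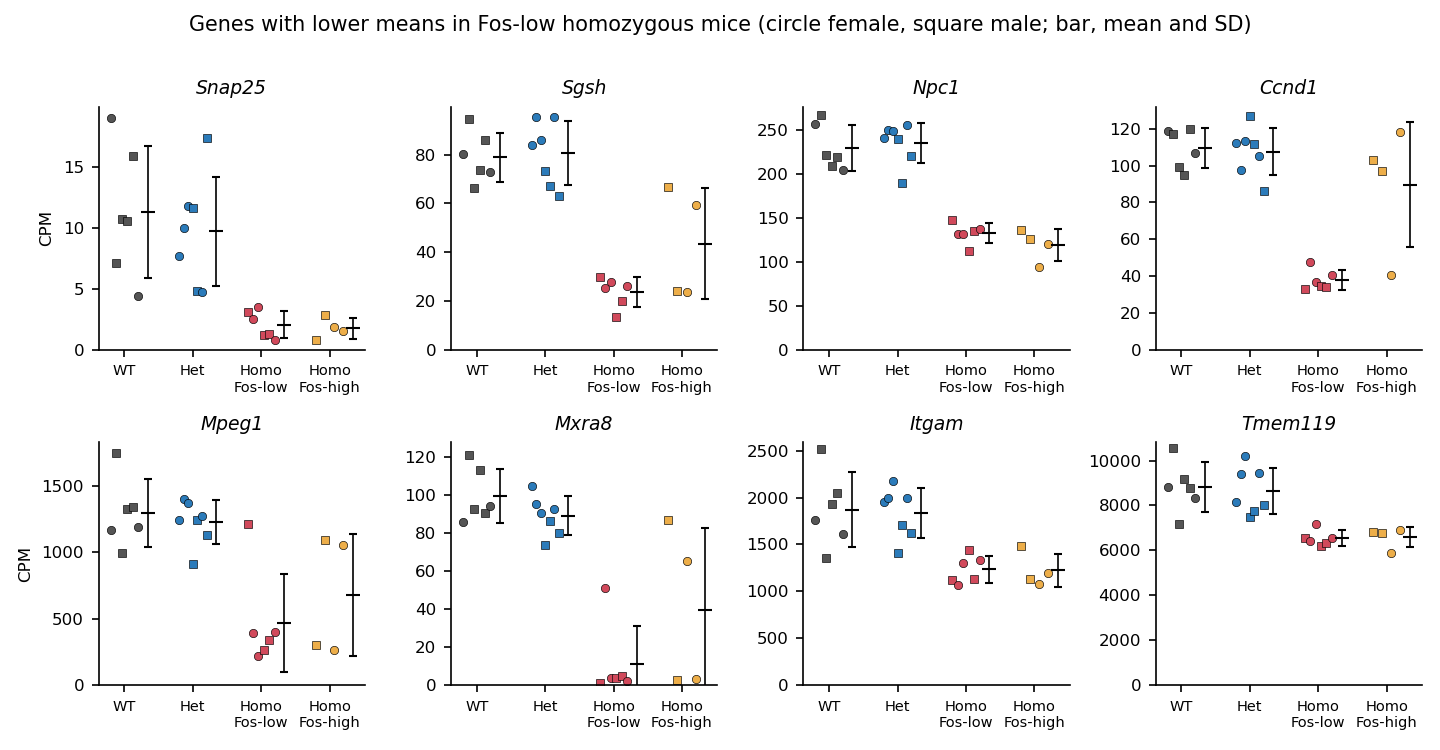
CPM by mouse of 8 genes with a lower mean in Fos-low homozygous mice, drawn as in the plot of genes with a higher mean, with bars cut at 0. Sgsh, Npc1 and Ccnd1 lie below all WT mice in all 6 Fos-low mice, whereas Mpeg1 in mouse Bin1-Homo-M-0344 (1209 CPM) is within the WT range and Mxra8 in mouse Bin1-Homo-F-0357 (51.3 CPM) is nearer to WT than the other 5 (0.943 to 4.52 CPM).

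Neuronal transcripts do not belong to microglia. Of 19 neuronal markers 12 passed the filter on low counts over all mice, but only 4 of the 12 would have passed it in the Fos-low homozygous mice taken alone, so the others entered through mice in which they were higher. The counts that follow are thus a description. Of the 12, 11 were lower, 4 were called lower and 0 higher, with a median log2FC of -1.46. The 12 summed to 14.1 to 25.9 CPM in the Fos-low mice, 27.7 to 54.9 CPM in WT mice, 24.3 to 47.4 CPM in heterozygous mice and 14.7 to 15.9 CPM in the Fos-high mice. The Fos-low and WT sums did not overlap, so a covariate made from these markers and genotype cannot be told apart. In bulk samples, fewer cells of a type and less RNA per cell cannot be told apart either. Snap25, a synaptic vesicle fusion protein, was at 1.90 CPM (0.798 to 3.52) against 10.7 CPM (4.38 to 19.0), with a log2FC of -2.43 (SE 0.41, adjusted p = 0.0012). Nrgn, which binds calmodulin in dendrites, was at 0.456 CPM (0.281 to 0.667) against 2.27 CPM (0.803 to 5.47), with a log2FC of -2.46. In both genes all 6 Fos-low mice lay below all WT mice. Vsnl1, a neuronal calcium sensor, was lower by 2.18 on the log2 scale, and Nrsn1 was the fourth called. Nrgn and Vsnl1 were below 1 CPM in every Fos-low mouse, near the floor of these libraries. Their fold changes are thus a description as well.

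Markers of other brain cells moved less. Astrocyte markers summed to 229.8 to 292 CPM in the Fos-low mice and 233 to 269 CPM in WT mice, of which Slc1a3 held 225 to 286 and 222.1 to 257 CPM. Of 6 tested, 1 was called, Aldoc. Oligodendrocyte markers summed to 173 to 209 and 179 to 256 CPM, with 5 of 6 lower and 0 called by edgeR or DESeq2. Of the endothelial markers 1 of 6 had enough counts, Pecam1, which myeloid cells also express, at 31.8 CPM (26.5 to 48.0) against 54.1 CPM (37.0 to 71.0), a log2FC of -0.72 (SE 0.14, adjusted p = 0.0026). Cldn5 and Flt1, which define endothelial cells, had too few counts to be tested.

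Within 20 Mb of Bin1 and outside the immediate-early list, 3 of 152 genes tested were called higher and 5 lower (5.26%), beside 2.44% of the 13196 genes elsewhere, a difference that was not tested. Gnpda1, a deaminase of glucosamine phosphate (ENSMUSG00000052102.12, chromosome 18 from 38327535 to 38339003), was at 126 CPM (117 to 154) against 80.7 CPM (74.3 to 89.7), with a log2FC of 0.72 (SE 0.085, adjusted p = 2.3e-05). Trim36, a ubiquitin ligase, was at 49.4 CPM (31.5 to 69.3) against 29.9 CPM (21.01 to 32.5), a log2FC of 0.85 (SE 0.14, adjusted p = 0.0012). Pcdhga5, a clustered protocadherin, and Hbegf, a growth factor, were lower, with log2FCs of -1.42 (SE 0.26, adjusted p = 0.0019) and -0.71 (SE 0.15, adjusted p = 0.0060). Ythdc2, a reader of methylated RNA, was also called, and the small noncoding RNA Vaultrc5 and the protocadherin Pcdhga7 complete the 8. The homozygous mice carry the floxed Bin1 region on both chromosomes and the other mice on 1, so genotype and donor DNA around the locus cannot be told apart.

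Gm8615, on chromosome 5 (149155108 to 149156209), fell with the smallest p among all genes, and was at 0.566 CPM (0.121 to 0.741) in the Fos-low mice and 10.6 CPM (8.27 to 12.95) in WT mice (log2FC -4.49 ± 0.41 SE, adjusted p = 7.7e-07). It was at 0 to 1.05 CPM in the Fos-high mice and 8.38 to 11.6 CPM in heterozygous mice. It is annotated as a transcribed processed pseudogene, and how reads shared with related genes were counted is not given in the sources used here. Gm24270 was at 6.73 CPM (0 to 16.8) against 31.8 CPM (19.2 to 40.6), without overlap (log2FC -2.08 ± 0.46 SE, adjusted p = 0.0069).

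Several lists held few or no called genes. Over all genes tested 2.51% were called, so 0 or 1 called in lists of this size, here or above, is no result about those lists. Heat shock (12 genes), glucocorticoid-responsive (9), circadian clock (15) and LXR target genes (12) had 0 called by edgeR or, except for the glucocorticoid-responsive list, with the mice of the 04 range alone, where 1 gene of that list was called. Their median log2FCs were -0.04, -0.22, -0.06 and -0.24. The Fos-high mice had medians of 0.21 and 0.52 for the heat shock and glucocorticoid-responsive lists, which both respond to stress. Of 14 genes of cholesterol synthesis 12 were lower and 1 was called, Cyp51. Genes of the mitochondrial genome were higher in 17 of 19, with a median of 0.46 and 4 called, all subunits of complex I, and 0 were called with the mice of the 04 range alone.

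**Figure D5:**
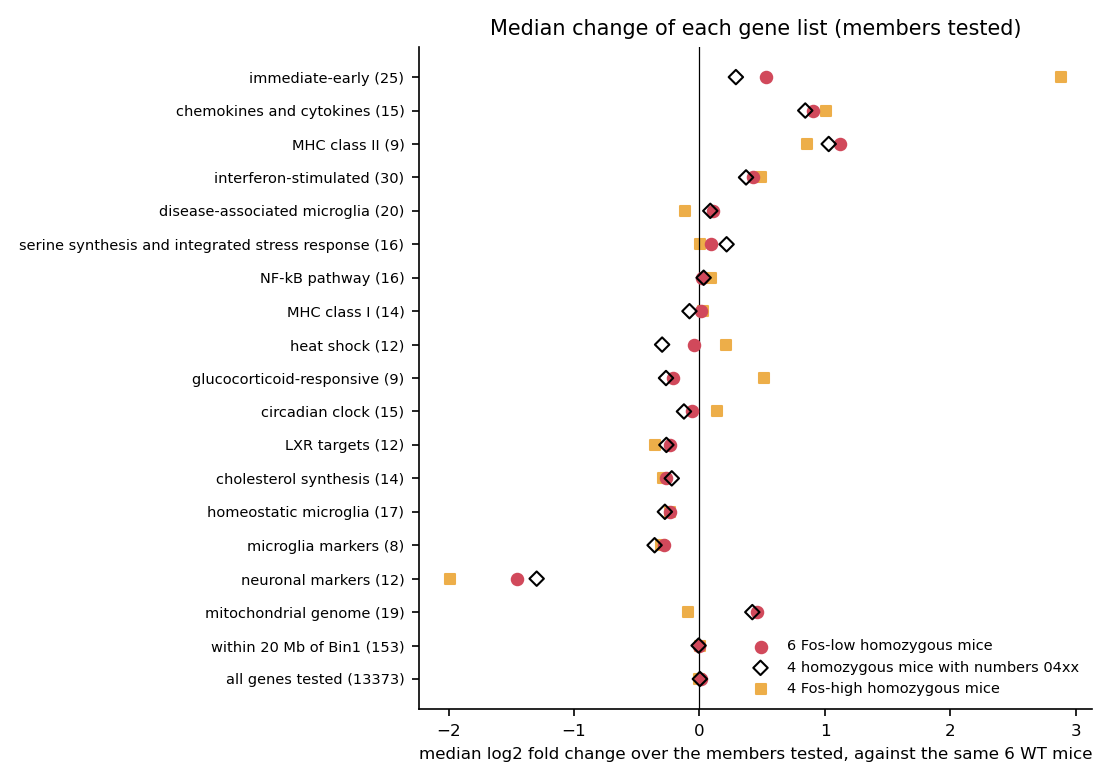
Median log2FC over the tested members of each list (number of members in brackets) for the 6 Fos-low homozygous mice, the 4 homozygous mice with numbers in the 04 range and the 4 Fos-high homozygous mice, each against the same 6 WT mice. The immediate-early list moves from 2.89 in the Fos-high to 0.53 in the Fos-low mice, whereas the median of chemokines and cytokines is 1.01 and 0.90, although Ccl2, Ccl3 and Ccl4 within that list had means of 30.3, 89.6 and 112 CPM in the Fos-high and 6.05, 19.6 and 26.3 CPM in the Fos-low mice. Neuronal markers lie at -1.99 and -1.46.

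The genes that led the study's own list for all homozygous mice were chosen on these same animals, so their values are not independent evidence. All 10 had a higher mean in the Fos-low homozygous mice, with a median log2FC of 1.71, and 9 of them outside the immediate-early list were called. They were Lilra5, Ccr2, Lyz2, Ccl2, Ccl3, 2610035D17Rik, Nfkbiz, H2-Aa and H2-Eb1, and the remaining gene was Egr2. A second list of 6 genes that the study names shares Lyz2 with the first. Of these 6, Cst7, Clec7a, Axl and Lyz2 were called higher and Bin1 lower.

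Some calls lay close to the limits of adjusted p or fold and were lost when single mice were left out of the fit. Clec7a, a receptor for fungal glucans, was at 9.57 to 33 CPM in the Fos-low mice and 6.86 to 10.2 CPM in WT mice (log2FC 0.95 ± 0.3 SE, adjusted p = 0.045). Clec7a stayed called in 3 of the 12 leave-one-out fits, those without Bin1-Homo-M-0344, Bin1-Homo-F-0440 and Bin1-WT-M-0214, and its adjusted p was highest (0.11, log2FC 0.81) without Bin1-WT-F-0224. Il6 was at 5.92 to 10.6 CPM in the Fos-low mice and 2.35 to 8.01 CPM in WT mice (log2FC 0.93 ± 0.26 SE, adjusted p = 0.028). Il6 lost its call without Bin1-Homo-M-0436, Bin1-Homo-M-0437, Bin1-WT-F-0224, Bin1-WT-M-0211 or Bin1-WT-M-0215, and its adjusted p was highest (0.069, log2FC 0.83) without Bin1-WT-M-0211. Bcl3 was at 3.03 to 19.4 CPM in the Fos-low mice and 3.07 to 5.11 CPM in WT mice (log2FC 1.05 ± 0.32 SE, adjusted p = 0.04). Bcl3 stayed called in 5 of the 12 leave-one-out fits, those without Bin1-Homo-M-0344, Bin1-Homo-F-0357, Bin1-Homo-F-0432, Bin1-Homo-M-0437 and Bin1-WT-F-0224, and its adjusted p was highest (0.2, log2FC 0.56) without Bin1-Homo-M-0436. Ciita was at 0.366 to 1.95 CPM in the Fos-low mice and 0 to 0.382 CPM in WT mice (log2FC 2.63 ± 0.8 SE, adjusted p = 0.041). Ciita stayed called in 2 of the 12 leave-one-out fits, those without Bin1-Homo-M-0436 and Bin1-Homo-F-0440, and its adjusted p was highest (0.085, log2FC 2.47) without Bin1-Homo-M-0437. F13a1, a coagulation factor chain of macrophages, was at 10.1 to 15.5 CPM in the Fos-low mice and 3.42 to 10.7 CPM in WT mice (log2FC 1.00 ± 0.31 SE, adjusted p = 0.045). F13a1 stayed called in 2 of the 12 leave-one-out fits, those without Bin1-Homo-F-0440 and Bin1-WT-M-0211, and its adjusted p was highest (0.1, log2FC 0.88) without Bin1-WT-M-0222. Slfn2, a schlafen family member, was at 25.8 to 39.7 CPM in the Fos-low mice and 17.3 to 28.6 CPM in WT mice (log2FC 0.59 ± 0.14 SE, adjusted p = 0.0086). Slfn2 lost its call without Bin1-Homo-M-0344, Bin1-Homo-M-0436, Bin1-Homo-M-0437, Bin1-WT-M-0211, Bin1-WT-M-0215 or Bin1-WT-M-0222, with a log2FC as close to 0 as 0.53, under the fold limit. Rtp4, a chaperone of receptors, was at 10.7 to 21.5 CPM in the Fos-low mice and 9.31 to 12.1 CPM in WT mice (log2FC 0.59 ± 0.15 SE, adjusted p = 0.017). Rtp4 lost its call without Bin1-Homo-F-0357, Bin1-Homo-M-0344, Bin1-Homo-M-0437, Bin1-WT-M-0211 or Bin1-WT-M-0215, and its adjusted p was highest (0.057, log2FC 0.49) without Bin1-Homo-M-0437. Ifit3, a partner of Ifit2 in binding viral RNA, was at 9.29 to 20.5 CPM in the Fos-low mice and 5 to 10.6 CPM in WT mice (log2FC 0.78 ± 0.23 SE, adjusted p = 0.033). Ifit3 lost its call without Bin1-Homo-F-0357, Bin1-Homo-M-0437, Bin1-WT-F-0210, Bin1-WT-F-0224, Bin1-WT-M-0215 or Bin1-WT-M-0222, and its adjusted p was highest (0.12, log2FC 0.59) without Bin1-Homo-M-0437. Mthfd2 was at 16 to 57.6 CPM in the Fos-low mice and 9.92 to 22.3 CPM in WT mice (log2FC 0.84 ± 0.25 SE, adjusted p = 0.034). Mthfd2 lost its call without Bin1-Homo-F-0432, Bin1-Homo-M-0436, Bin1-Homo-M-0437, Bin1-WT-F-0224, Bin1-WT-M-0215 or Bin1-WT-M-0222, and its adjusted p was highest (0.13, log2FC 0.58) without Bin1-Homo-M-0436. Ythdc2 was at 6.62 to 14.3 CPM in the Fos-low mice and 4.38 to 8.48 CPM in WT mice (log2FC 0.66 ± 0.19 SE, adjusted p = 0.033). Ythdc2 lost its call without Bin1-Homo-M-0344, Bin1-Homo-M-0436, Bin1-WT-F-0224, Bin1-WT-M-0211, Bin1-WT-M-0215 or Bin1-WT-M-0222, and its adjusted p was highest (0.098, log2FC 0.53) without Bin1-Homo-M-0436.

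Low-level rises and a mitochondrial gene were of the same kind. Gm9892 was at 4 to 12.2 CPM in the Fos-low mice and 0.151 to 3.66 CPM in WT mice (log2FC 2.298 ± 0.69 SE, adjusted p = 0.038). Gm9892 lost its call without Bin1-Homo-F-0440, Bin1-Homo-M-0437, Bin1-WT-F-0210, Bin1-WT-F-0224, Bin1-WT-M-0215 or Bin1-WT-M-0222, and its adjusted p was highest (0.092, log2FC 2.12) without Bin1-Homo-M-0437. Gm1070 was at 0.843 to 2.9 CPM in the Fos-low mice and 0.227 to 1.16 CPM in WT mice (log2FC 1.86 ± 0.56 SE, adjusted p = 0.039). Gm1070 stayed called in 4 of the 12 leave-one-out fits, those without Bin1-Homo-F-0357, Bin1-Homo-M-0436, Bin1-WT-M-0222 and Bin1-WT-F-0224, and its adjusted p was highest (0.083, log2FC 1.70) without Bin1-WT-M-0215. Ahcy was at 1.52 to 5.8 CPM in the Fos-low mice and 0.292 to 2.04 CPM in WT mice (log2FC 1.82 ± 0.5 SE, adjusted p = 0.026). Ahcy lost its call without Bin1-Homo-F-0440, Bin1-Homo-M-0436, Bin1-Homo-M-0437 or Bin1-WT-F-0210, and its adjusted p was highest (0.061, log2FC 1.64) without Bin1-WT-F-0210. mt-Nd4, a subunit of complex I, was at 187 to 254 CPM in the Fos-low mice and 76.4 to 208 CPM in WT mice (log2FC 0.69 ± 0.2 SE, adjusted p = 0.03). mt-Nd4 stayed called in 4 of the 12 leave-one-out fits, those without Bin1-Homo-F-0432, Bin1-Homo-M-0436, Bin1-WT-F-0210 and Bin1-WT-M-0214, and its adjusted p was highest (0.081, log2FC 0.62) without Bin1-WT-M-0211. Among the falls, the same held for markers of several cell types and for a sterol gene. Itgam was at 1063 to 1444 CPM in the Fos-low mice and 1351 to 2517 CPM in WT mice (log2FC -0.61 ± 0.13 SE, adjusted p = 0.0051). Itgam lost its call without Bin1-Homo-F-0357, Bin1-Homo-M-0344, Bin1-Homo-M-0437, Bin1-WT-M-0211 or Bin1-WT-M-0222, with a log2FC as close to 0 as -0.51, under the fold limit. Nrsn1, a vesicle protein of neurons, was at 0 to 1.21 CPM in the Fos-low mice, near the floor, and 1.14 to 4.92 CPM in WT mice (log2FC -2.36 ± 0.68 SE, adjusted p = 0.032). Nrsn1 lost its call without Bin1-Homo-F-0357, Bin1-Homo-F-0432, Bin1-Homo-F-0440, Bin1-Homo-M-0436, Bin1-Homo-M-0437 or Bin1-WT-M-0222, and its adjusted p was highest (0.096, log2FC -1.96) without Bin1-WT-M-0222. Aldoc, an aldolase of brain, was at 1.33 to 5.83 CPM in the Fos-low mice and 4.39 to 11.7 CPM in WT mice (log2FC -1.29 ± 0.39 SE, adjusted p = 0.038). Aldoc lost its call without Bin1-Homo-F-0357, Bin1-Homo-F-0440, Bin1-Homo-M-0436, Bin1-Homo-M-0437, Bin1-WT-M-0211 or Bin1-WT-M-0222, and its adjusted p was highest (0.11, log2FC -1.01) without Bin1-WT-M-0222. Cyp51, a demethylase of sterols, was at 13.1 to 22.1 CPM in the Fos-low mice and 17.4 to 33.2 CPM in WT mice (log2FC -0.60 ± 0.15 SE, adjusted p = 0.015). Cyp51 lost its call without Bin1-Homo-M-0437, Bin1-WT-M-0211, Bin1-WT-M-0215 or Bin1-WT-M-0222, with a log2FC as close to 0 as -0.52, under the fold limit. ENSMUSG00000106793.1, a transcript without a symbol, was at 0 to 4.43 CPM in the Fos-low mice and 2.63 to 6.42 CPM in WT mice (log2FC -2.17 ± 0.62 SE, adjusted p = 0.032). That transcript stayed called in 5 of the 12 leave-one-out fits, those without Bin1-Homo-F-0357, Bin1-Homo-F-0432, Bin1-WT-F-0210, Bin1-WT-M-0214 and Bin1-WT-F-0224, and its adjusted p was highest (0.081, log2FC -1.99) without Bin1-Homo-M-0437.

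Against the 7 heterozygous mice, which share the 02 range of numbers with WT mice and carry Cre, 541 genes (4.05%) were called in the Fos-low homozygous mice, 239 higher and 302 lower. Both comparisons share the Fos-low mice, so they are not independent. Lyz2 was at 99.95 to 185 CPM in heterozygous mice (adjusted p = 1.4e-06), Sgsh at 63.2 to 95.5 CPM and Ccnd1 at 86.5 to 127 CPM, close to WT. Ccl3 was at 5.51 to 8.68 CPM (adjusted p = 4.6e-06) and H2-Aa at 4.74 to 21.7 CPM (adjusted p = 0.0016). Of 71 genes called against WT and selected for description, 18 were not called against heterozygous mice, and none changed sign. In 5 of them (Cyp51, Bin1, Pecam1, Itgam and Trim36) the fold change alone fell short. The adjusted p was over 0.05 in the other 13, with values of 0.26 for Rsad2, 0.25 for Pcdhga5, 0.19 for Ciita, 0.32 for F13a1, 0.083 for Ifit3, 0.54 for Ythdc2, 0.17 for mt-Nd4, 0.23 for Gm9892, 0.20 for Ahcy, 0.067 for Plbd1, 0.14 for Nrsn1, 0.12 for Aldoc and 0.059 for ENSMUSG00000106793.1. Rsad2 was at 0 to 0.988 CPM and Pcdhga5 at 1.25 to 6.74 CPM in heterozygous mice.

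A difference of the genotype effect between the sexes was tested with 3 females and 3 males among the Fos-low mice and 2 females and 4 males among WT mice. At an adjusted p below 0.05, 0 genes passed by edgeR's quasi-likelihood test (smallest adjusted p = 0.18) and 0 by limma-voom, with 780 genes at an unadjusted p below 0.05. With females alone 14 genes were called and with males alone 234, but these counts come from groups of different size and do not show a difference between the sexes.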

How the data were processed

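RNA from FACS-sorted microglia was sequenced in 25 labelled mice, of which 23 had a column of counts (10812969 to 16734846 counts per mouse). The 2 without a column were not analysed here. The authors aligned reads to mm10 and estimated expected counts per gene with RSEM, and these expected counts were deposited without normalization (82.2% of values whole). How strand and reads with several matches were treated is not given in the sources used here.

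Expected counts were rounded. Of 43411 genes, 42929 were matched to symbols and GRCm38 coordinates of GENCODE, and 482 were not. Genes were filtered with filterByExpr, scaled by TMM and fitted with edgeR 4.0.16 (R 4.3.3) by the quasi-likelihood test in all 23 mice, with 4 groups (WT, heterozygous, Fos-low and Fos-high homozygous) and a term for sex. P-values were adjusted over all genes tested (Benjamini-Hochberg), and genes were called where the adjusted p was under 0.05 and the fold over 1.5. A prior count of 2 was used for log2 CPM values alone, and fold changes come from the fit at edgeR's default setting. Immediate-early genes stayed in the fit and in the counts of called genes, where 5 of them passed the limits, but nothing was read from their tests, since the mice were chosen on Fos. Alternatives used DESeq2 1.42.0 and limma-voom 3.58.1, other scalings, filters and subsets of mice. On simulated counts (13038 genes) edgeR recovered 88% of genes changed by 1 and 92% of those changed by 1.5 on the log2 scale, with 4 unchanged genes called.

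The mice, the gene lists and the tests were chosen with earlier results of these data known. Named genes were the 12 largest rises, the 8 largest falls and the smallest p in each direction among called genes with a mean of at least 0 log2 CPM over the 12 mice and outside the immediate-early list, together with the called members of smallest p in each list, the study's own genes, and called genes within 20 Mb of Bin1. Further genes were chosen after their values were seen. Of those, Ccl4, Ccl7, Ccl12, Il1b, Il6, Ifit2, Ifit3, Ciita, Csf1r, H2-DMa, H2-Q4 and mt-Nd4 are not marked so beside their values. The labels name separate mice, with no repeat library. Replicates differed by more than sampling noise, so none was counted as a duplicate. Promoters were read from RefSeq (GRCm38.p6). Figures were drawn with matplotlib 3.10.9 (Python 3.11.15). Some genes are not reported here.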

Additional observations from a re-analysis of the deposited data

Results flagged for a closer look

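In 170 combinations of gene and group, 15 single mice stood apart from the other 5 of their group by Dixon's criterion, where chance gives about 1 in 20. Of these, 6 belonged to Bin1-Homo-M-0436. It was highest for Ccl12 (267 CPM, others 36.2 to 57.7), Psat1 (64.58, others 20.7 to 27.5), Fcgr4 (35.11, others 5.58 to 16.1), Bcl3 (19.35, others 3.03 to 7.33) and Il1b (9.016, others 3.30 to 5.22), and lowest for H2-Ab1 (42 CPM, others 94.4 to 122). Bin1-Homo-F-0357 was highest for Mxra8 (51.28 CPM, others 0.943 to 4.52) and Gas1 (1.967 CPM, others 0.0673 to 0.580). Bin1-Homo-M-0344 was highest for Mpeg1 (1209 CPM, others 219.2 to 397) and Bin1-Homo-M-0437 for Gm9892 (12.16 CPM, others 4.00 to 7.04).

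Among WT mice, Bin1-WT-M-0211 was highest for Lilra5 (8.698 CPM, others 4.82 to 5.92) and Ccl7 (1.145 CPM, others 0.0683 to 0.2189). Bin1-WT-F-0224 was highest for Ier2 (23.49 CPM, others 11.8 to 14.4) and Ccl4 (24.8 CPM, others 12.3 to 16.5), and Bin1-WT-M-0222 for Aldoc (11.69 CPM, others 4.39 to 7.08). No explanation was tested for these values.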

How the results depend on the processing

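The 335 genes called became 191 with the 3 homozygous mice whose Fos was at or below the highest WT value (1.7 CPM), 14 with the neuronal marker covariate, 14 with females alone, 1106 with no fold threshold and 97 when tested against a fold of 1.2 (glmTreat). With single mice left out, at most 353 genes were called (without Bin1-Homo-F-0432), and 62.1% (without Bin1-Homo-M-0437) to 90.4% (without Bin1-WT-M-0214) of the 335 were still called. Other counts were 423 (DESeq2), 385 (limma-voom), 334 and 335 (other scalings), 324 and 309 (other filters), 305 (no sex term), 243 (the 12 mice alone), 234 (males alone), 323 (04 range) and 439 (all 10 homozygous mice). The median of all genes moved by at most 0.014 on the log2 scale. No direction reversed for any named gene under the settings run. With DESeq2, limma-voom, the 12 mice alone, all 10 homozygous mice and the 04 range alone, 1, 8, 6, 10 and 17 named genes lost their call. No paired analysis was possible because the groups share no replicate numbers. Depth limits genes of about 1 CPM or less, such as Rsad2 and Ccl7.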

Other observations

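In mouse Bin1-Homo-M-0436, Socs3, a feedback inhibitor of cytokine signaling, was at 161.7 CPM, above the Fos-high mice (134 to 153 CPM), whereas the other 5 Fos-low mice were at 38.6 to 67.8 CPM and WT mice at 28.9 to 57.2 CPM. Fos in that mouse was at 1.98 CPM. Socs3 was chosen after its values were seen.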
